A study of Mus musculus with 9 samples.

Results

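The Bcl2 family of apoptosis regulators was followed through 10 genes listed by name. Probe sets carrying exactly 1 of these symbols in the platform annotation were used, and they covered 9 of the 10 genes with 12 probe sets, out of 19147 genes tested in all. Bax is not analysed here. Bcl2 had 3 probe sets, Mcl1 had 2 and the other 7 genes had 1 each. For a gene with several probe sets, the one with the highest mean log2 intensity over the arrays gave its main value.

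The Bcl2 family decides whether a cell releases cytochrome c from its mitochondria and dies by apoptosis. Anti-apoptotic members (Bcl2, Bcl-xL, encoded by Bcl2l1, and Mcl1) hold the pore-forming effectors Bax and Bak (Bak1) in check. The BH3-only members Bim (Bcl2l11), Bid, Bad, Puma (Bbc3) and Noxa (Pmaip1) relay damage, loss of trophic signals or stress by binding the anti-apoptotic proteins or activating the effectors. In mice, Bcl-xL and Mcl1 are needed for the survival of neurons and neural progenitors, and Puma and Noxa are target genes of p53.

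The arrays measured total RNA of mice of strain C57BL/6 at postnatal day 5, labelled brain and described in the study's design as cerebellum, from 9 animals on 9 arrays: 3 SmoA2 mutants, 3 Smo/Smo mutants and 3 wild type mice. SmoA2 mice carry a transgene for an activated form of Smoothened, which sits in the membrane and transduces Sonic hedgehog (Shh). A fragment of the Neurod2 promoter drives it in granule neuron precursors, and the arrays measured all cell types of the tissue together. The labels do not explain Smo/Smo, a name in use for mice homozygous for the corresponding SmoA1 transgene, and the design names SmoA1 as the other line studied. Animal codes of the Smo/Smo mice carry another prefix than those of both other groups, so their source and genotype cannot be told apart.

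All 9 arrays had nearly equal distributions, with median intensities of 91 to 95.1, and pairs of arrays correlated at 0.994 to 0.998 across probe sets. Markers of granule neuron progenitors, postmitotic granule neurons and Purkinje cells were all above background in at least 1 array, in 9, 10 and 7 measured genes. Choroid plexus markers had sums of intensity of 8296 to 9858 in SmoA2, 9909 to 11316 in Smo/Smo and 1870 to 6201 in wild type, and 0 of 10 were called in limma. SmoA2 replicate 3 had the lowest array weight in limma, at 0.386. In tissue RNA, fewer cells of a type and less RNA per cell cannot be told apart. The labels do not say more about how the 3 mice of a group relate, and p-values measure the spread between these mice only.

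All 12 probe sets lay above background in all 9 arrays. Their lowest log2 intensity was 7.16, whereas 90% of the 855 probe sets of olfactory receptor genes, which cerebellum is not known to use, had means below 4.60. No member was called in any comparison at an adjusted p under 0.05 (limma, Benjamini-Hochberg adjustment over all genes). In SmoA2 against wild type, 0 of 9 members were called, against 2.69% of all genes (0.961% higher and 1.73% lower), and 2 had an unadjusted p under 0.05 (22.2%), against 14.8% of all genes. In Smo/Smo against wild type, 0 of 9 were called, against 0.371% of all genes (0.214% higher and 0.157% lower), and none had an unadjusted p under 0.05, against 8.77%. In SmoA2 against Smo/Smo, 0 of 9 were called, against 2.56% of all genes (1.02% higher and 1.54% lower), and 2 had an unadjusted p under 0.05, against 14.3%. The moderated F test over the 3 groups also called 0 of 9 (2.89% of all genes), with Bcl2l1 and Bbc3 at an unadjusted p under 0.05 (15.2% of all genes). The median log2 fold change of the members was 0.02 in SmoA2 against wild type and -0.03 in Smo/Smo against wild type, next to 0.01 over all genes in both. It was 0.06 in SmoA2 against Smo/Smo, next to 0.00 over all genes. Both comparisons with wild type use the same 3 wild type arrays, so they are given side by side and are not independent.

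**Figure D1:**
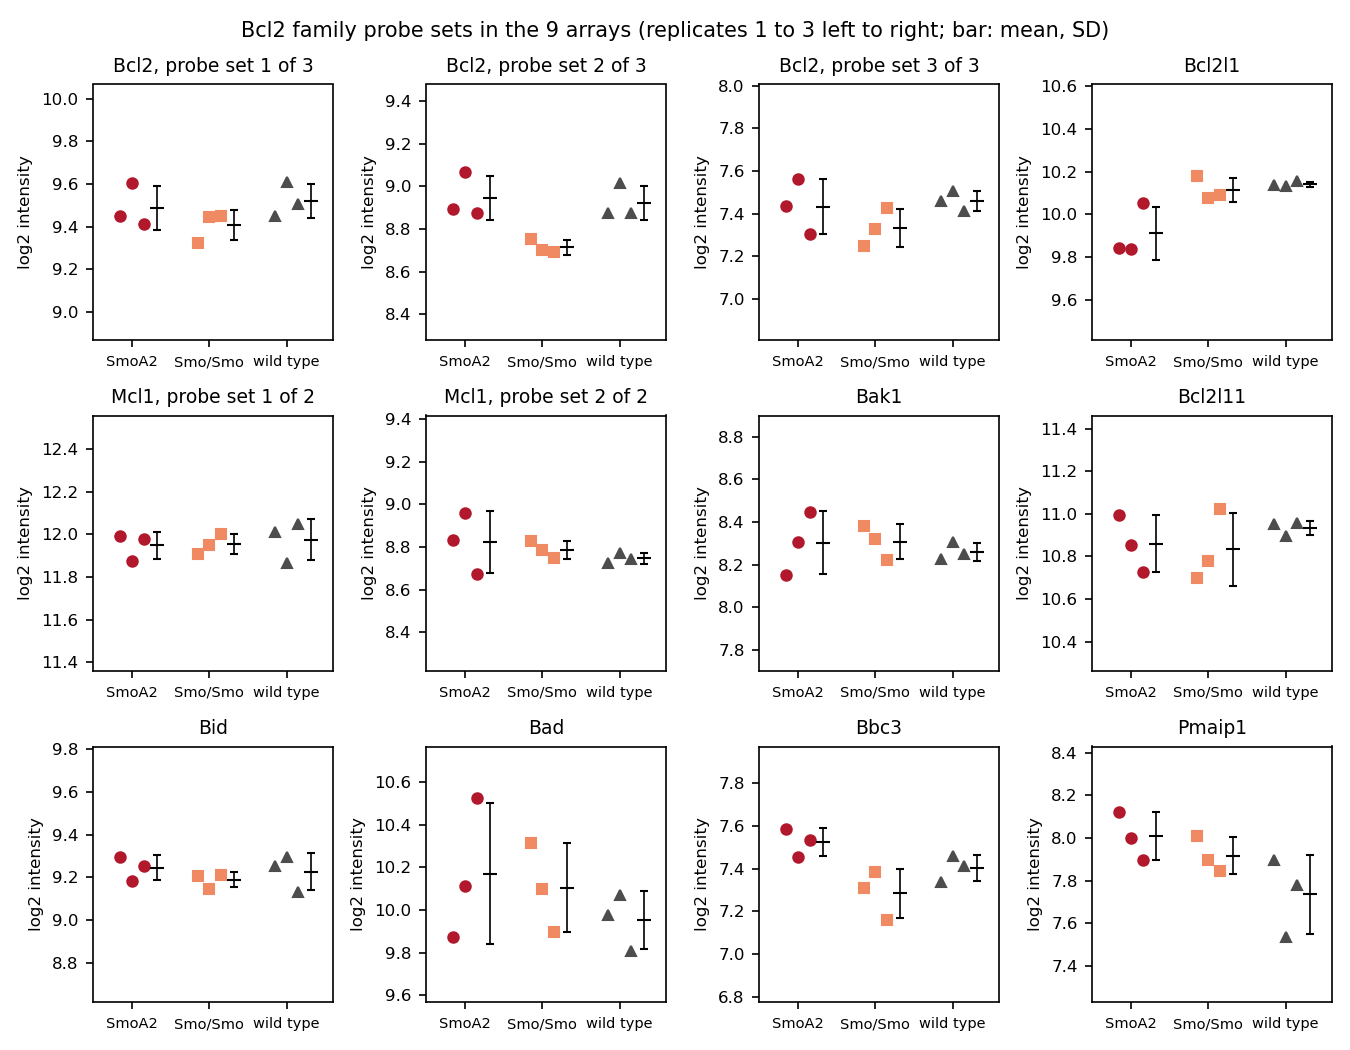
Log2 intensity (vertical axis, 1.2 log2 units in each panel) of the 12 probe sets of the Bcl2 family in SmoA2, Smo/Smo and wild type, with 1 point per array and the mean and SD beside each group (n = 3). In most panels the groups overlap, while the SmoA2 arrays of Bcl2l1 (9.84 to 10.05) lie below all wild type arrays (10.13 to 10.16).

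Among the anti-apoptotic genes, Bcl2l1 came nearest to a call. It had log2 intensities of 9.84, 9.84 and 10.05 in SmoA2, 10.18, 10.08 and 10.09 in Smo/Smo, and 10.14, 10.13 and 10.16 in wild type. All 3 SmoA2 arrays were below every array of both other groups, with SmoA2 replicate 3 close to them. Complete separation of the groups occurred in 1 of 9 members for SmoA2 against wild type, against 19.1% of all genes, and in 0 of 9 for Smo/Smo against wild type, against 15.9% of all genes. The mean was 0.85-fold in SmoA2 relative to wild type, or -0.23 ± 0.07 on the log2 scale (SE from the limma model of all 9 arrays, 3 mice per group, adjusted p = 0.157). The adjusted p for Smo/Smo against wild type was 0.955 (log2 fold change -0.03), and for SmoA2 against Smo/Smo it was 0.215 (-0.20 ± 0.07). Without SmoA2 replicate 3 the log2 fold change against wild type was -0.30, with an adjusted p of 0.0387, and this was the only refit in which a member was called. The 95% interval of the change in all 9 arrays ran from -0.39 to -0.07.

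Bcl2l1 was lowest in the arrays in which markers of several cell types were low. Of 7 measured Purkinje cell markers, 3 fell in SmoA2 against wild type (Pcp2, Rora and Lhx5), and their summed intensity was 18830 to 20877 in SmoA2, 24628 to 24985 in Smo/Smo and 24333 to 25365 in wild type. Of 5 markers of GABAergic interneurons, 3 fell (Pax2, Gad1 and Slc32a1), with sums of 3883 to 4017 in SmoA2, 5230 to 5552 in Smo/Smo and 5409 to 5826 in wild type. Of 10 meningeal and fibroblast markers, 7 fell, with sums of 9891 to 12236 in SmoA2, 13884 to 14703 in Smo/Smo and 14815 to 15551 in wild type. The list of Bergmann glia and astrocytes had 3 of 10 genes lower (Gdf10, Wif1 and Gjb6), with sums of 32965 to 34531 in SmoA2, 36842 to 38112 in Smo/Smo and 36979 to 38719 in wild type. Of 9 endothelial and mural markers, 3 fell (Kdr, Tek and Vtn), with sums of 6867 to 7628 in SmoA2, 9045 to 9246 in Smo/Smo and 8702 to 8878 in wild type. None of the genes in these 5 lists was at background in all arrays. Over all genes, 1.73% were called lower in SmoA2 against wild type. Not all genes of these lists went down. The highest log2 fold changes were 0.385 for Lum (meninges), 0.146 for Slc1a2 (glia) and 0.054 for Pecam1 (endothelium), none of them called. Postmitotic granule neuron markers also had lower sums in SmoA2 (20174 to 20902, against 21897 to 22792 in Smo/Smo and 22226 to 22624 in wild type). Of these 10, only Grin2c was called in SmoA2 against wild type, and it rose. Microglia and macrophage sums went the other way, at 4895 to 6131 in SmoA2, 3651 to 4283 in Smo/Smo and 4307 to 4831 in wild type. The part of these cell types in the Bcl2l1 values was not tested. Among genes with a proper name rather than a clone or prediction number, the 5 whose levels followed Bcl2l1 most closely over the 9 arrays were St8sia5 (r = 0.976), Ripply3 (0.970), Kcnj11 (0.966), Slc1a6 (0.964) and Glt8d2 (0.964). Slc1a6 encodes a glutamate transporter of Purkinje cells, Kcnj11 a potassium channel subunit and St8sia5 a sialyltransferase. Of these 5 only St8sia5 was called in SmoA2 against wild type (-0.44, adjusted p = 0.0239). The values are Pearson correlations over 9 arrays that share 3 genotypes, and 82 genes of 19146 had an r above 0.9 with Bcl2l1, 79 of them with a proper name.

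Bcl2, the founding anti-apoptotic gene, did not pass the test on any of its probe sets. On the main probe set it had log2 intensities of 9.45, 9.61 and 9.41 in SmoA2, 9.32, 9.45 and 9.45 in Smo/Smo, and 9.45, 9.61 and 9.51 in wild type, so that the groups overlapped throughout. The log2 fold change was -0.03 ± 0.07 in SmoA2 against wild type (adjusted p = 0.889) and -0.11 ± 0.07 in Smo/Smo against wild type (adjusted p = 0.740). The second probe set is annotated to another RefSeq transcript of Bcl2 than the main one. It had 8.89, 9.07 and 8.88 in SmoA2, 8.76, 8.70 and 8.69 in Smo/Smo, and 8.88, 9.01 and 8.88 in wild type. Here all Smo/Smo arrays lay below all arrays of both other groups. With every probe set fitted, this gave -0.21 ± 0.07 in Smo/Smo against wild type (unadjusted p = 0.0174, adjusted p = 0.423) and 0.23 ± 0.07 in SmoA2 against Smo/Smo (adjusted p = 0.167), neither of which was called. The third probe set gave -0.13 ± 0.08 in Smo/Smo against wild type (adjusted p = 0.723) with overlapping groups.

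Mcl1, an anti-apoptotic gene whose protein turns over quickly, did not pass the test in any comparison. It had 11.99, 11.88 and 11.98 in SmoA2, 11.91, 11.95 and 12.002 in Smo/Smo, and 12.01, 11.87 and 12.05 in wild type. The lowest and the highest of the 9 values were both wild type. Its log2 fold change was -0.03 ± 0.07 in SmoA2 against wild type, with a 95% interval of -0.18 to 0.12, and -0.02 ± 0.07 in Smo/Smo against wild type, with an interval of -0.18 to 0.13. The other Mcl1 probe set gave 0.08 ± 0.08 and 0.04 ± 0.08 in these comparisons (adjusted p = 0.717 and 0.934), of opposite sign to the main one and likewise not called.

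Bak1, which encodes the effector Bak, also showed no difference that passed the test. It had 8.15, 8.31 and 8.45 in SmoA2, 8.38, 8.32 and 8.22 in Smo/Smo, and 8.23, 8.31 and 8.25 in wild type. The SmoA2 arrays held both the lowest and the highest value. The log2 fold changes were 0.04 ± 0.08 in SmoA2 against wild type (95% interval -0.14 to 0.23, adjusted p = 0.860) and 0.05 ± 0.08 in Smo/Smo against wild type (-0.14 to 0.23, adjusted p = 0.926). The first was -0.030 without SmoA2 replicate 3.

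Among the BH3-only genes, Pmaip1 had the largest log2 fold change of any member. It had 8.12, 8.001 and 7.90 in SmoA2, 8.01, 7.90 and 7.84 in Smo/Smo, and 7.90, 7.53 and 7.78 in wild type. The lowest SmoA2 value equalled the highest wild type value, with both deposited as an intensity of 238.4625, so the groups met without separating. Smo/Smo replicate 2 was deposited with the same intensity. Such exact ties between arrays occurred in 34.3% of all probe sets. The SmoA2 mean was 1.21-fold that of wild type, at 0.27 ± 0.10 on the log2 scale (SE, n = 3 per group; unadjusted p = 0.0251, adjusted p = 0.249). For Smo/Smo against wild type it was 0.18 ± 0.10 (adjusted p = 0.684). In the fits that left out 1 array, the SmoA2 value lay between 0.17 and 0.35, and it was not called in any of these.

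Bbc3, like Pmaip1 a p53 target gene, had 7.59, 7.46 and 7.53 in SmoA2, 7.31, 7.38 and 7.16 in Smo/Smo, and 7.34, 7.46 and 7.41 in wild type. SmoA2 and Smo/Smo lay on opposite sides of the wild type mean of 7.40 and did not overlap with each other, which held for 18.2% of all genes in that comparison. The log2 fold change was 0.12 ± 0.07 in SmoA2 against wild type (adjusted p = 0.496) and -0.12 ± 0.07 in Smo/Smo against wild type (adjusted p = 0.723). The direct comparison of SmoA2 with Smo/Smo gave 0.24 ± 0.07, a 1.18-fold difference (unadjusted p = 0.00934, adjusted p = 0.153). Besides Bbc3, only Bcl2l1 separated these groups among the 9 members.

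Bcl2l11, whose product Bim acts in neurons deprived of trophic support, had 10.996, 10.86 and 10.73 in SmoA2, 10.70, 10.78 and 11.02 in Smo/Smo, and 10.95, 10.90 and 10.96 in wild type. Both mutant groups spread more widely than wild type and overlapped with it. The log2 fold change was -0.08 ± 0.10 in SmoA2 against wild type (adjusted p = 0.773) and -0.10 ± 0.10 in Smo/Smo against wild type (adjusted p = 0.838). Without SmoA2 replicate 3 the first was -0.0093, and without Smo/Smo replicate 1 the second was -0.034. Bid, which links death receptors to mitochondria when caspase 8 cleaves it, varied little, from 9.13 to 9.30 over the 9 arrays. It had log2 fold changes of 0.02 ± 0.06 in SmoA2 and -0.04 ± 0.06 in Smo/Smo, each against wild type. Bad, which survival kinases phosphorylate and inactivate, was the most variable member, with a pooled SD within groups of 0.24 next to 0.06 for Bid. It had 9.87, 10.11 and 10.53 in SmoA2, 10.32, 10.10 and 9.90 in Smo/Smo, and 9.98, 10.07 and 9.81 in wild type. Its changes of 0.22 ± 0.17 in SmoA2 and 0.15 ± 0.17 in Smo/Smo, each against wild type, were not called (adjusted p = 0.598 and 0.866). Single arrays carried both values. The SmoA2 value was 0.040 without SmoA2 replicate 3 and 0.37 without SmoA2 replicate 1, and the Smo/Smo value was 0.046 without Smo/Smo replicate 1 and 0.25 without Smo/Smo replicate 3.

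The intervals show what size of change each comparison left possible, for 1 gene at a time and without adjustment for their number. For 8 of the 9 members, all 3 comparisons had 95% intervals within 0.5 on the log2 scale in either direction. The exception was Bad, whose interval in SmoA2 against wild type ran from -0.16 to 0.59. Pmaip1 was only just inside, with an upper end of 0.499 in SmoA2 against wild type. At its own standard error and at the largest p that was called, 0.00134, a member needed a change of 0.29 (Bid) to 0.75 (Bad) to be called in SmoA2 against wild type. Bcl2l1 stood at -0.23 against the 0.32 it needed, and Pmaip1 at 0.27 against 0.46. In Smo/Smo against wild type the largest called p was 0.000177, and the needed change was 0.39 (Bid) to 1.00 (Bad).

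**Figure D2:**
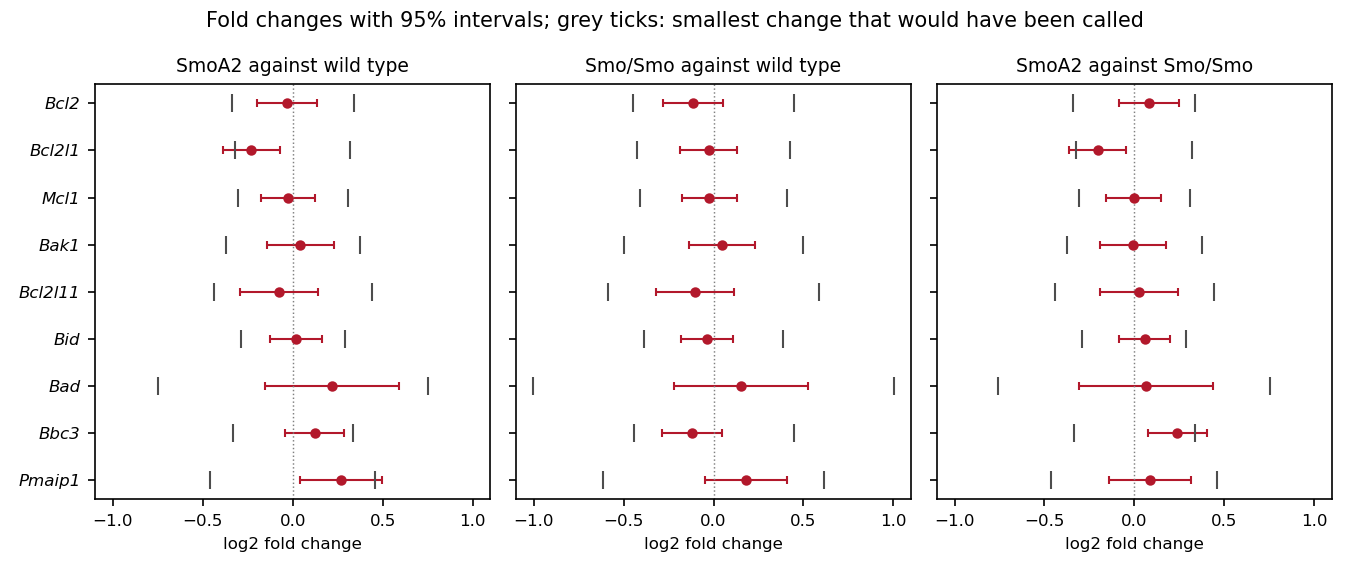
Log2 fold change (horizontal axis) of the 9 measured members in the 3 comparisons, with 95% intervals, and grey ticks at the smallest change that would have been called at that gene's standard error. No point lies beyond its ticks, and Bcl2l1 in SmoA2 against wild type (-0.23, tick at -0.32) and Bbc3 in SmoA2 against Smo/Smo (0.24, tick at 0.34) come close to theirs.

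Across the 9 arrays, Bad, Bak1 and Bcl2l11 varied together irrespective of genotype. Bad and Bak1 were high and low in the same arrays (Pearson r = 0.927, exact permutation p = 0.0003, adjusted p = 0.00709 over 36 pairs of members; Spearman rho = 0.883, exact permutation p = 0.00308, adjusted p = 0.0369; two-sided, n = 9 arrays). Bcl2l11 ran the other way, with r = -0.913 to Bak1 (exact permutation p = 0.000394, adjusted p = 0.00709; rho = -0.950, p = 0.000353, adjusted p = 0.0127). Its r to Bad was -0.888 (exact permutation p = 0.00078, adjusted p = 0.00936; rho = -0.900, p = 0.00203, adjusted p = 0.0365). With the group means removed, these correlations were 0.946, -0.915 and -0.896. Without the 2 arrays farthest from the median of Bak1, the r of Bak1 was 0.901 to Bad and -0.954 to Bcl2l11, and without those farthest from the median of Bcl2l11 its r to Bad was -0.811. Of the other 33 pairs, none had an adjusted p under 0.05 on either measure. SmoA2 replicate 3 and Smo/Smo replicate 1 had both the highest Bad values (10.53 and 10.32) and the lowest Bcl2l11 values (10.73 and 10.70). Many other genes followed the same order of arrays, with 325 of 19146 above an r of 0.9 to Bad and 64 below -0.9. The counts for Bak1 were 162 and 78, and for Bcl2l11 17 and 116. Among the other members, the 2 counts together were fewest for Bid (5 and 5) and most for Bcl2l1 (82 and 43). The labels give no RNA quality or scan batch to set beside this, and its source was not tested.

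**Figure D3:**
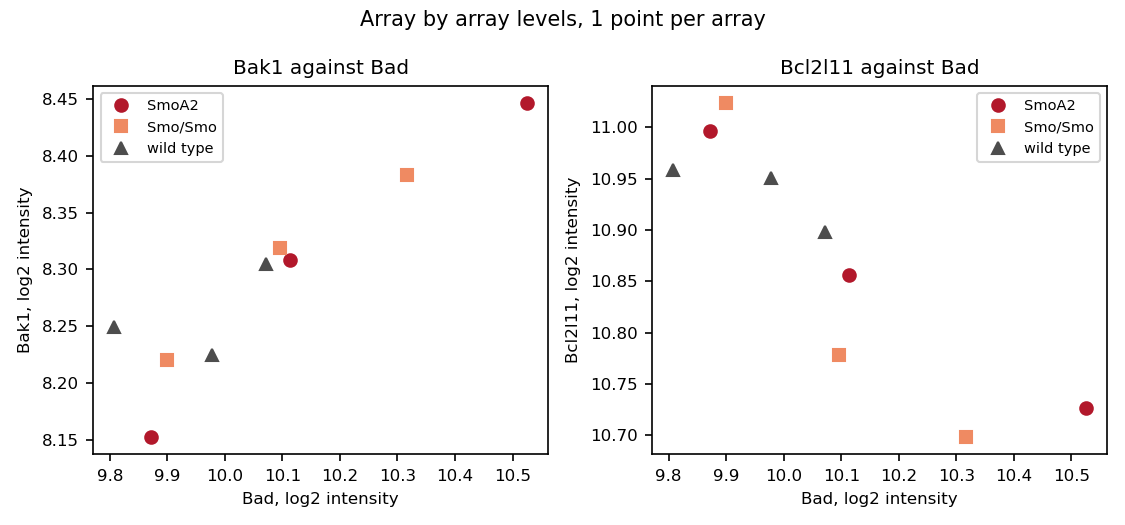
Log2 intensity of Bak1 (left) and Bcl2l11 (right) against that of Bad, with 1 point per array and symbols for SmoA2, Smo/Smo and wild type. The arrays fall along 1 rising line for Bak1 (r = 0.927) and 1 falling line for Bcl2l11 (r = -0.888), with the 3 groups mixed along it.

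Genes that work with the family were taken from 6 lists of 83 genes, of which 68 were measured. In SmoA2 against wild type, 2 rose and 1 fell (4.41% called, against 2.69% of all genes), and the median log2 fold change was 0.00, next to 0.01 over all genes. In Smo/Smo against wild type 0 of 68 were called in limma, with 4 at an unadjusted p under 0.05 (5.88%, against 8.77% of all genes). In SmoA2 against Smo/Smo, 2 were higher and 3 lower (7.35%, against 2.56% of all genes). The lists were chosen with earlier results of these data known, so these shares cannot show an excess of called genes. Of 11 further Bcl2 family genes measured, 1 was called in SmoA2 against wild type, and it was a BH3-only gene.

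That gene was Hrk, whose product Harakiri is a neuronal BH3-only protein that binds Bcl2 and Bcl-xL. It had 8.62, 8.64 and 8.34 in SmoA2, 7.92, 7.88 and 7.88 in Smo/Smo, and 8.01, 8.05 and 7.91 in wild type. Each SmoA2 array was above all 6 others. Hrk rose 1.46-fold in SmoA2 against wild type (0.54 ± 0.08 on the log2 scale, limma adjusted p = 0.0106). It did not pass in Smo/Smo against wild type (-0.10 ± 0.08, adjusted p = 0.811), and the direct comparison of SmoA2 with Smo/Smo gave 0.64 ± 0.08 (adjusted p = 0.0058). The rise was called in each of the 9 fits without 1 array (0.49 to 0.64, adjusted p up to 0.0447). It was not called when only the arrays of SmoA2 and wild type were fitted (0.54, adjusted p = 0.0528). Of 9 measured granule neuron progenitor markers, 4 rose in SmoA2 against wild type (Atoh1, Ccnd1, Gli1 and Boc). The other 5 were not called, among them Ccnd2 at -0.24 (adjusted p = 0.0788). The list had sums of 34739 to 36905 in SmoA2, 34459 to 36211 in Smo/Smo and 34036 to 35084 in wild type, so that SmoA2 and Smo/Smo overlapped. Their part in the Hrk values was not tested.

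The other further family genes gave no call against wild type. Bcl2l15, a little-studied relative, had 7.68, 7.30 and 7.51 in SmoA2, 7.96, 7.92 and 7.96 in Smo/Smo, and 7.64, 7.71 and 7.57 in wild type, so that it was highest in Smo/Smo. It was lower in SmoA2 than in Smo/Smo (-0.45 ± 0.09, adjusted p = 0.04), and this call was lost in 8 of the 9 fits without 1 array, those without any of the 3 wild type or 3 Smo/Smo arrays or without SmoA2 replicate 2 or 3 (adjusted p up to 0.121). The remaining 9 genes were not called.

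Downstream of the mitochondria there was no call in any comparison. None of the 10 measured apoptosome, caspase and released factor genes, the 7 inhibitor of apoptosis genes or the 11 mitochondrial and endoplasmic reticulum partners passed in limma. In the first of these lists Casp9, the initiator caspase of the apoptosome, had the smallest F test p (-0.24 ± 0.07 in SmoA2 against wild type, adjusted p = 0.154), followed by the cytochrome c gene Cycs (-0.12 ± 0.09, adjusted p = 0.588). Cycs was -0.21 in SmoA2 against wild type without SmoA2 replicate 3. Its other probe set, above background in 8 of 9 arrays, gave -0.53 ± 0.18 in SmoA2 (adjusted p = 0.209) and -0.41 ± 0.18 in Smo/Smo (adjusted p = 0.564), each against wild type. Naip2 and Naip5, of the inhibitor family, stood at 0.24 ± 0.12 and -0.18 ± 0.14 in SmoA2 and at -0.19 ± 0.12 and -0.41 ± 0.14 in Smo/Smo, each against wild type (adjusted p = 0.388 and 0.605, and 0.712 and 0.436). In SmoA2 against wild type, Naip2 was 0.098 without SmoA2 replicate 3 and Naip5 was 0.0088 without wild type replicate 3. In SmoA2 against Smo/Smo, Naip2 stood at 0.43 ± 0.12 (limma adjusted p = 0.101). Naip2 and Naip5 lay near background, with mean log2 intensities of 5.37 and 5.19 next to the background limit of 4.60. They are neighbouring, closely related genes, whose signals may not be fully separate on an array. Bcap31, an endoplasmic reticulum partner of Bcl2, and the mitochondrial channel gene Vdac1 stayed within 0.11 of 0 on the log2 scale in all 3 comparisons on their main probe sets. The other Vdac1 probe set gave -0.17 ± 0.09 in SmoA2 against Smo/Smo (adjusted p = 0.437). On main probe sets the mitochondrial and endoplasmic reticulum list ranged from -0.09 to 0.02 in SmoA2 against wild type.

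Of 8 genes of the death receptor pathway, none was called against wild type. Tnfrsf10b, the mouse TRAIL receptor and a p53 target, had 7.10, 7.26 and 7.08 in SmoA2, 7.62, 7.53 and 7.48 in Smo/Smo, and 7.57, 7.35 and 7.43 in wild type. All SmoA2 arrays were below the others. The log2 fold change was -0.30 ± 0.08 in SmoA2 against wild type (adjusted p = 0.0917), and -0.40 ± 0.08 in SmoA2 against Smo/Smo (adjusted p = 0.0341). The call against Smo/Smo was lost in 6 of the 9 fits without 1 array, those without wild type replicate 3, SmoA2 replicate 1 or 3, or any Smo/Smo array (adjusted p up to 0.12).

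Of 21 measured transcription factors and modifiers that act on the family, Gli1 rose and Trp73 fell in SmoA2 against wild type (2.69% of all genes called). Trp53, which encodes p53, was not among the measured genes. Gli1, the transcription factor that Shh signalling induces, had 10.33, 10.10 and 10.21 in SmoA2, 9.76, 9.77 and 9.85 in Smo/Smo, and 9.78, 9.72 and 9.64 in wild type. Its log2 fold change was 0.50 ± 0.07 in SmoA2 against wild type (adjusted p = 0.00801), and without both wild type replicate 3 and SmoA2 replicate 3 it was not called (0.46, adjusted p = 0.0775). In SmoA2 against Smo/Smo it was 0.42 ± 0.07 (adjusted p = 0.0205), a call lost without SmoA2 replicate 1 or any Smo/Smo array (adjusted p up to 0.089). Trp73, which encodes the p53 relative p73, had 6.33, 6.48 and 6.40 in SmoA2, 7.53, 7.30 and 7.74 in Smo/Smo, and 7.84, 7.995 and 7.70 in wild type. It fell by 1.44 on the log2 scale in SmoA2 against wild type (SE 0.11, adjusted p = 0.000347), while its other probe set gave -0.25 ± 0.14 (adjusted p = 0.477).

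**Figure D4:**
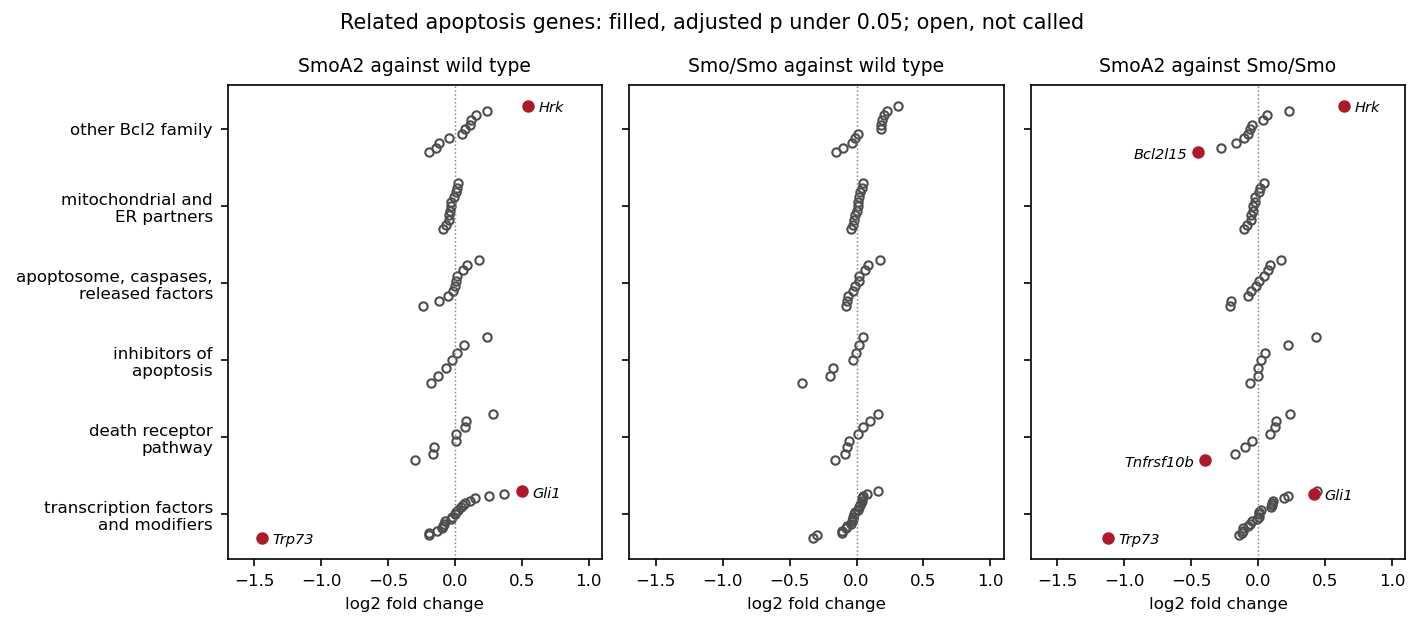
Log2 fold change (horizontal axis) of the 68 measured related genes in 6 lists (rows) for the 3 comparisons, with filled points for genes at an adjusted p under 0.05 and open points for the rest. Hrk stands at 0.54 in SmoA2 against wild type and at -0.10 in Smo/Smo against wild type, where no gene is filled.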

How the data were processed

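Total RNA was hybridised to custom Affymetrix arrays, 1 per mouse, in 3 groups of 3. The deposited values are probe set intensities that the authors summarised with RMA, per the submitters' processing notes, which give no version. The values proved linear, so log2 was taken. In 34.3% of probe sets at least 2 arrays share a value exactly. Of 38385 probe sets, 24478 carried 1 symbol in the platform annotation, 65 several and 13842 none. The probe set with the highest mean represented each of 19147 genes.

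One limma 3.58.1 model (R 4.3.3; lmFit, eBayes) with 3 group means, fitted to the 9 arrays together, gave every fold change, standard error, 95% interval and p-value. P-values were Benjamini-Hochberg adjusted over all genes and called under 0.05. Correlations used exact permutation of the 9 arrays. The procedure was run on simulated data with independent noise for each gene. That setting lacks the variation that many genes share across these arrays, so it cannot show how such variation affects the calls. Members and lists were chosen with earlier results of these data known. All members were named on every probe set. From each related list the called genes were named, or else the 2 with the smallest F-test p. The alternatives were other probe set choices, a filter on low values (14843 genes kept), 2 normalizations, an intensity trend with robust moderation, array weights, fits of 2 groups, and fits without single arrays or without 2 of them. Protein sequences were not used here. Precision is limited by the number of arrays. Figures used matplotlib 3.10.9 and Python 3.11.15.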

Additional observations from a re-analysis of the deposited data

Results flagged for a closer look

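In the direct test, the SmoA2 and Smo/Smo effects against wild type differed for 5 of the 68 related genes (7.35%, against 2.56% of all genes). These were Hrk (SmoA2 minus Smo/Smo 0.64 on the log2 scale), Bcl2l15 (-0.45), Tnfrsf10b (-0.40), Trp73 (-1.12) and Gli1 (0.42), with adjusted p of 0.0058, 0.04, 0.0341, 0.00186 and 0.0205 in limma. The lists were chosen with earlier results of these data known, so these shares cannot show an excess of called genes. Calls for Bcl2l15, Tnfrsf10b and Gli1 were lost in 8, 6 and 4 of the 9 fits without 1 array. The other Trp73 probe set gave -0.19 ± 0.14 (limma adjusted p = 0.64). Bbc3 had every SmoA2 array above and every Smo/Smo array below the wild type mean, with a difference of 0.24 that the direct test did not call (adjusted p = 0.153).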

How the results depend on the processing

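No paired analysis was possible because the labels give animal codes and no replicate numbers shared between groups. The number of members called was 0 in every alternative, except 1 (Bcl2l1) in SmoA2 against wild type without SmoA2 replicate 3. Of 639 refits of single members (3 comparisons and the F test), 605 kept their side of the threshold and, in the comparisons, their direction. Another 33 turned the sign of a change that was not called, and 1 gained a call. The cause of these turns was not tested. The F test has no direction. Fitting every probe set, the filter on low values, the intensity trend and fits of only 2 groups cannot alter a fold change. Leaving out an array of the group not compared cannot alter it either. The 605 therefore overstate how often direction was put to a test.

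Without single arrays, SmoA2 against wild type ranged over 0 to 1 members called, -0.090 to 0.011 for Bcl2, -0.082 to 0.0089 for Mcl1, -0.030 to 0.118 for Bak1, -0.029 to 0.053 for Bid and -0.279 to 0.0088 for Naip5. Smo/Smo against wild type ranged over -0.078 to 0.012 for Mcl1, -0.029 to 0.077 for Bcap31 and -0.069 to 0.024 for Casp9. SmoA2 against Smo/Smo ranged over -0.026 to 0.032 for Mcl1, -0.078 to 0.070 for Bak1, -0.042 to 0.122 for Bcl2l11 and -0.111 to 0.216 for Bad. Genes called numbered 234 to 445 in SmoA2 against wild type, 21 to 65 in Smo/Smo against wild type (both lowest without wild type replicate 2), 170 (without Smo/Smo replicate 2) to 467 in SmoA2 against Smo/Smo and 268 (without SmoA2 replicate 1) to 476 in the F test. Related genes called numbered 2 to 5 in SmoA2 against Smo/Smo and 3 to 5 in the F test.

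Without both wild type replicate 3 and SmoA2 replicate 3, SmoA2 against wild type gave -0.035 for Bak1, 0.0020 for Bcl2l11, -0.034 for Bid and -0.032 for Bad. Smo/Smo against wild type gave 0.012 for Mcl1 and 0.024 for Casp9, and SmoA2 against Smo/Smo gave -0.11 for Bad. The genes called were then 215, 38 and 296, and 270 in the F test. With the mean of a gene's probe sets, Mcl1 gave 0.024 in SmoA2 against wild type, 0.0080 in Smo/Smo against wild type and 0.016 in SmoA2 against Smo/Smo, and Cycs gave -0.17 in Smo/Smo against wild type. In SmoA2 against Smo/Smo, quantile normalization gave 0.00585 for Mcl1 and 0.014 for Bak1, and centring on medians gave 0.013 for Mcl1 and 0.012 for Bak1. Array weights gave 0.013 for Bcl2 in SmoA2 against wild type, -0.00718 for Bad in SmoA2 against Smo/Smo, and 162 genes called in Smo/Smo against wild type. Fits of only 2 groups, with fewer arrays, called 235, 42 and 231 genes, and 2 related genes in SmoA2 against Smo/Smo. The intensity trend called 795 genes in SmoA2 against Smo/Smo, 933 in the F test, and 5 related genes in SmoA2 against wild type. In the F test it called 5 related genes, as did array weights and the filter on low values, against 3 in the model reported.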
